A study of Mus musculus with 12 samples.

Results

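The 9 genes described here encode the insulin receptor (Insr), its adaptors Irs1 and Irs2, the phosphoinositide 3-kinase (PI3K) inhibitor Pik3ip1, the FoxO transcription factors Foxo1, Foxo3 and Foxo4, and the FoxO-linked quiescence genes Ccng2 and Bcl6. They were taken by symbol from a deposited table of 19439 gene entries, where all 9 were found. The libraries were of polyadenylated RNA from 2 3T3 lines of mouse embryonic fibroblasts, cells made immortal by repeated passage, in a study of how p53 shapes the response to glutamine loss. The 12 libraries fell into 4 groups of 3: p53 -/- cells (p53-null) kept for 18 h in glutamine-free DMEM, p53-null cells kept in DMEM with 2 mM glutamine (complete medium), cells with wild-type p53 (WT) in glutamine-free medium, and WT cells in complete medium. The growth medium of both lines held 25 mM glucose, and no other allele or agent is given in the labels. With 1 line for each genotype, every genotype difference below is a difference between these 2 lines. Whether the 3 libraries of a group are separate cultures is not stated, and p-values then cover no more than the spread among these libraries, possibly a technical one.

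Insulin and insulin-like growth factors bind receptor tyrosine kinases that phosphorylate the adaptors Irs1 and Irs2, and these recruit PI3K, which activates the kinase AKT. AKT phosphorylates FoxO factors and keeps them out of the nucleus. When the pathway is quiet, FoxO factors enter the nucleus and raise genes of cell cycle exit, stress resistance and, in a known feedback, of insulin receptor signalling itself, among them Insr and Irs2. Messenger RNA levels show neither the phosphorylation nor the location of these proteins.

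Values are reads scaled to transcript length and library size (RPKM), with means ± SD over a group's 3 libraries (n = 3). Changes were computed on log2(RPKM + 1) and carry a standard error (SE), a scale that understates the change of a gene near 1 RPKM. A gene was called at an adjusted p under 0.05 in limma, with Benjamini-Hochberg adjustment over the 11461 tested genes. All 9 genes were among those tested.

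Trp53, the gene of the genotype labels, was at 34.0 to 35.2 and 27.9 to 29.6 RPKM in p53-null glutamine-free and complete libraries, and at 109.4 to 113.9 and 57.8 to 59.0 RPKM in WT glutamine-free and complete libraries. All 10 listed fibroblast markers were in the table, 9 of them averaging at least 1 RPKM in every group. Their summed level was 1430 to 1460 and 2470 to 2510 RPKM in p53-null glutamine-free and complete libraries, and 834 to 840 and 3670 to 3680 RPKM in the WT ones. Thy1 was listed at 0 in all WT glutamine-free libraries and averaged under 0.1 RPKM in WT complete libraries. Markers of other cell types also differed between groups. The 7 adipocyte markers summed to at most 0.239 RPKM in p53-null libraries, 0.643 to 1.08 in WT glutamine-free libraries and 21.9 to 23.9 in WT complete libraries. That last sum was mostly Fabp4 (mean 22.7 RPKM), with Adipoq, Cidec, Lep and Cfd listed at 0. The 6 epithelial markers summed to 77.2 to 84.7 RPKM in the p53-null line, led by Krt18, and to at most 0.252 in WT, with Epcam, Cdh1 and Cldn4 averaging under 0.1 RPKM in every group. The 7 muscle and neural markers found, of 8 listed, summed to 2.84 to 3.2 RPKM in the p53-null line and 21.3 to 39.9 in WT, led there by Tubb3 and Stmn2, with Myog listed at 0 in WT. Endothelial markers (5) summed to at most 1.9 RPKM and blood markers (6 found of 9 listed) to at most 7.6 RPKM, nearly all Cd68. The part of these differences in the results below was not tested. In bulk libraries, fewer cells of a type and less RNA per cell cannot be told apart. Estimated depth was 37.5 to 46.8 M reads per library, and the least covered of the 9 genes, Irs1, rested on roughly 219 reads in its lowest library.

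Without glutamine, the 9 genes split differently in the 2 lines. In p53-null cells 6 rose (Insr, Irs2, Foxo1, Foxo3, Ccng2, Bcl6) and 3 fell (Irs1, Pik3ip1, Foxo4). In WT cells 2 rose (Insr, Foxo3) and 7 fell, 5 of them by at least 1 on the log2 scale, while none of the 9 changed that much in p53-null cells. Foxo1, Irs2, Ccng2 and Bcl6 were called in opposite directions, higher without glutamine in p53-null cells and lower in WT cells. Most genes in these data passed the same test. Of all tested genes, 82% were called in p53-null cells (50% higher and 32% lower) and 90.1% in WT cells (46% higher and 44% lower), so that a call alone sets no gene apart. A called change of at least 1 on the log2 scale was found for 3.31% of tested genes in p53-null cells and 22.6% in WT cells. Calls higher in p53-null and lower in WT made up 11.6% of tested genes, against 4 of the 9 here. Calls with the opposite pairing made up 5.92%, against 0 of the 9. Calls with the same sign in both lines made up 57.4%, against 5 of the 9. Under centring each library on its median, the split of all genes called in p53-null cells moved to 4525 higher and 4984 lower, against 5732 higher and 3671 lower with the values as deposited. The median log2 change over the 9 genes was 0.31 in p53-null cells and -1.06 in WT cells, beside 0.08 and 0.01 over all tested genes. The 3 libraries of each medium did not overlap for any of the 9 genes in either line, which held for 84% of tested genes in p53-null cells and 90% in WT cells.

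**Figure D1:**
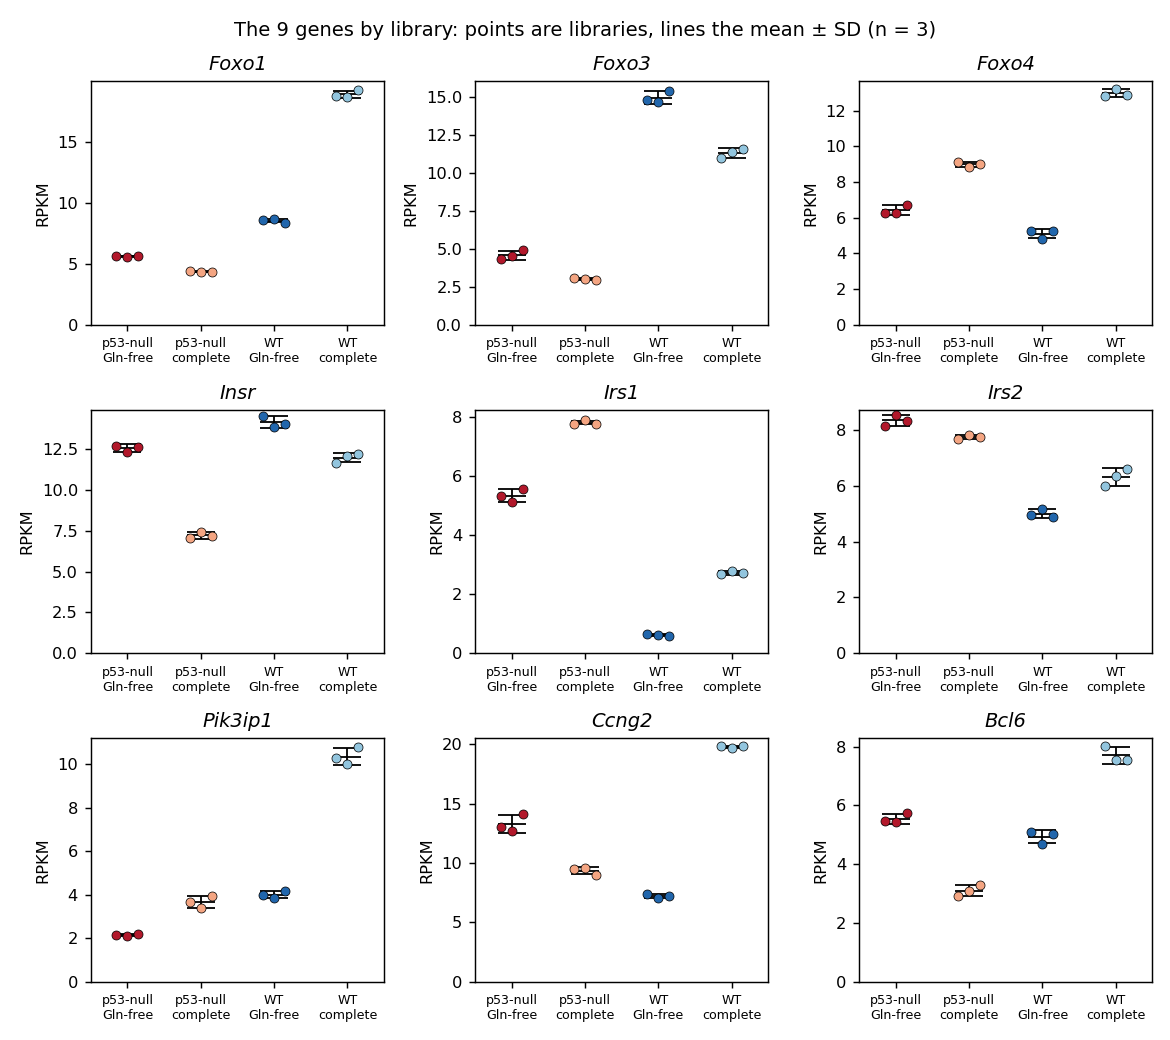
RPKM of each of the 9 genes in every library, 1 panel per gene, with points for libraries, lines for the group mean ± SD (n = 3) and groups in the order p53-null glutamine-free, p53-null complete, WT glutamine-free and WT complete. The libraries of a group lie close together, as for Foxo1 at 18.6 to 19.2 RPKM in WT complete medium, against 8.37 to 8.66 RPKM in WT glutamine-free medium.

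Insr, the receptor at the head of the pathway (chromosome 8, 3122061 to 3279617, minus strand, mm10), rose without glutamine in both lines. It stood at 12.7, 12.3 and 12.7 RPKM in p53-null glutamine-free libraries, against 7.04, 7.45 and 7.16 RPKM in p53-null complete libraries. In WT it stood at 14.6, 13.9 and 14.1 RPKM in glutamine-free libraries and 11.7, 12.1 and 12.2 RPKM in complete libraries. All glutamine-free libraries exceeded all complete libraries of both lines, so the p53-null complete group was the low one. The rise was 1.74-fold in p53-null cells (log2 change 0.72 ± 0.027, adjusted p = 4.6e-11 in limma) and 1.18-fold in WT cells (0.22 ± 0.027, adjusted p = 3.3e-06). The response was larger in the p53-null line, by 0.50 ± 0.038 on the log2 scale (adjusted p = 4.5e-08).

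Irs1, an adaptor that couples the receptor to PI3K (chromosome 1, 82233101 to 82291416, minus strand), fell in both lines. Its libraries held 5.34, 5.11 and 5.57 RPKM in p53-null glutamine-free medium, against 7.78, 7.89 and 7.78 RPKM in p53-null complete medium. They held 0.669, 0.615 and 0.580 RPKM in WT glutamine-free medium and 2.67, 2.80 and 2.72 RPKM in WT complete medium. The 4 groups were fully separate, with every p53-null library above every WT library. Mean Irs1 was 1.46-fold lower without glutamine in p53-null cells (log2 change -0.48 ± 0.033, adjusted p = 2.1e-08) and 4.39-fold lower in WT cells (-1.20 ± 0.033, adjusted p = 5.8e-13). The difference between these responses was 0.73 ± 0.047 (adjusted p = 8.6e-09). With a pseudocount of 0.1 RPKM the WT change was -1.97 and the response difference 1.43. Of the Irs1 exon length, 30.9% lies under Gm9747, a gene on the opposite strand, and the kit did not mark strand, so reads of both genes cannot be told apart there.

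Irs2, the second adaptor, itself a known FoxO target in liver (chromosome 8, 10984681 to 11008458, minus strand), had the smallest change of the 9 in p53-null cells. It held 8.14, 8.55 and 8.34 RPKM in p53-null glutamine-free libraries, against 7.68, 7.84 and 7.74 RPKM in p53-null complete libraries. In WT the glutamine-free libraries had 4.96, 5.19 and 4.87 RPKM and the complete libraries 5.98, 6.35 and 6.60 RPKM. The groups did not overlap, with p53-null libraries above WT ones in both media. The p53-null rise was 1.08-fold (log2 change 0.09 ± 0.034, adjusted p = 0.02), and the call was lost without p53-null complete replicate 1 (adjusted p = 0.056) or glutamine-free replicate 2 (adjusted p = 0.077). The change turned to -0.01 when libraries were centred on their median and to -0.001 with quantile normalization. The WT fall was 1.26-fold (-0.28 ± 0.034, adjusted p = 3e-06).

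The 2 adaptors therefore stood in different proportions in each group. The Irs2 to Irs1 ratio in RPKM was 1.56 ± 0.093 in p53-null glutamine-free cells and 0.992 ± 0.0042 in p53-null complete cells. It was 8.08 ± 0.58 in WT glutamine-free cells and 2.31 ± 0.10 in WT complete cells. Libraries of different groups did not overlap in this ratio, which was highest where Irs1 was lowest. Their sum was 13.7 ± 0.22 RPKM in p53-null glutamine-free cells and 15.6 ± 0.14 in p53-null complete cells, against 5.63 ± 0.18 and 9.04 ± 0.35 RPKM in WT glutamine-free and complete cells.

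Pik3ip1, a membrane protein that binds the catalytic subunit of PI3K and lowers its activity (chromosome 11, 3330401 to 3342971, plus strand), fell in both lines. It was at 2.15, 2.09 and 2.20 RPKM in p53-null glutamine-free libraries, against 3.65, 3.41 and 3.93 RPKM in p53-null complete libraries. WT glutamine-free libraries had 3.99, 3.84 and 4.16 RPKM and WT complete libraries 10.3, 10.01 and 10.8 RPKM. WT complete libraries stood well above the rest, while WT glutamine-free and p53-null complete libraries overlapped. Mean Pik3ip1 was 1.71-fold lower in p53-null cells (log2 change -0.57 ± 0.043, adjusted p = 4.4e-08) and 2.59-fold lower in WT cells (-1.18 ± 0.043, adjusted p = 9.2e-12).

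Foxo1, the FoxO factor best known for control of gluconeogenic genes in liver (chromosome 3, 52268336 to 52353221, plus strand), moved in opposite directions in the lines. It held 5.66, 5.57 and 5.60 RPKM in p53-null glutamine-free libraries, against 4.37, 4.35 and 4.30 RPKM in p53-null complete libraries. WT glutamine-free libraries had 8.60, 8.66 and 8.37 RPKM and WT complete libraries 18.8, 18.6 and 19.2 RPKM. Every WT library exceeded every p53-null library, and the WT complete libraries were the highest. Foxo1 rose 1.29-fold without glutamine in p53-null cells (log2 change 0.31 ± 0.022, adjusted p = 3e-08). In WT cells its mean was 2.21-fold lower (-1.06 ± 0.022, adjusted p = 3.8e-14).

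Foxo3, known for its part in cell survival and oxidative stress resistance (chromosome 10, 42181841 to 42276755, minus strand), rose in both lines. Libraries held 4.31, 4.55 and 4.91 RPKM in p53-null glutamine-free medium, against 3.06, 3.04 and 2.94 RPKM in p53-null complete medium. They held 14.8, 14.7 and 15.4 RPKM in WT glutamine-free medium and 10.98, 11.4 and 11.6 RPKM in WT complete medium. All WT libraries lay far above all p53-null libraries. The rise was 1.52-fold in p53-null cells (log2 change 0.48 ± 0.037, adjusted p = 7.2e-08) and 1.32-fold in WT cells (0.37 ± 0.037, adjusted p = 5.8e-07). The difference of these responses did not pass the test, at 0.11 ± 0.053 with a 95% interval of -0.01 to 0.22 (adjusted p = 0.081). Under 4 alternatives it was called, at 0.14 to 0.19, among them the fit without p53-null glutamine-free replicate 1 (0.14, adjusted p = 0.018), while with median centring it was 0.005.

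Foxo4, the X-linked FoxO factor (chromosome X, 101254528 to 101260873, plus strand), fell in both lines. It stood at 6.25, 6.25 and 6.73 RPKM in p53-null glutamine-free libraries, against 9.10, 8.84 and 9.03 RPKM in p53-null complete libraries. WT glutamine-free libraries had 5.24, 4.80 and 5.27 RPKM and WT complete libraries 12.8, 13.2 and 12.9 RPKM. The groups were separate, and the WT line held both the lowest and the highest of them. Mean Foxo4 was 1.40-fold lower in p53-null cells (log2 change -0.43 ± 0.035, adjusted p = 9.4e-08) and 2.54-fold lower in WT cells (-1.20 ± 0.035, adjusted p = 1e-12). Foxo6, the fourth family member, averaged under 1 RPKM in all groups and was not tested.

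Because the FoxO genes moved differently, their summed level and their makeup were compared. The sum of Foxo1, Foxo3 and Foxo4 was 16.6 ± 0.55 RPKM in p53-null glutamine-free cells and 16.3 ± 0.17 RPKM in p53-null complete cells, with overlapping ranges of 16.2 to 17.2 and 16.2 to 16.5. In WT it was 28.6 ± 0.48 RPKM in glutamine-free cells and 43.2 ± 0.56 RPKM in complete cells, without overlap. In the p53-null line Foxo4 was the main transcript in both media, at 38.2 to 39.0% of the sum without glutamine and 54.5 to 55.5% in complete medium. In WT cells Foxo3 led without glutamine (52.3 ± 0.72%) and Foxo1 led in complete medium (43.7 ± 0.61%). Shares of a sum are linked to each other and rest on transcript lengths that are not given. They are given as a description.

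**Figure D2:**
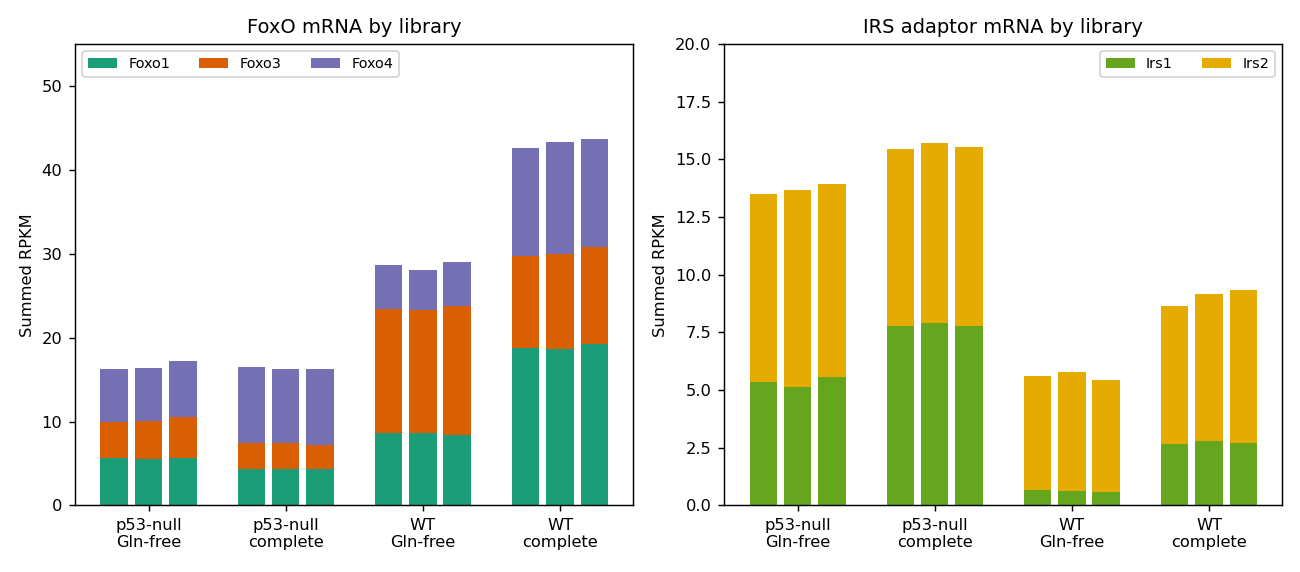
Summed RPKM of Foxo1, Foxo3 and Foxo4, and of Irs1 and Irs2, in every library of the 4 groups, 1 stacked bar per library with each gene's level as a coloured part. The mean FoxO sum is 16.6 and 16.3 RPKM in p53-null glutamine-free and complete cells, and 28.6 and 43.2 RPKM in WT glutamine-free and complete cells.

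Ccng2, the unconventional cyclin G2, which is linked to cell cycle exit and is a known FoxO target (chromosome 5, 93267257 to 93276231, plus strand), had the widest gap between the responses. It held 13.1, 12.7 and 14.2 RPKM in p53-null glutamine-free libraries, against 9.47, 9.59 and 9.004 RPKM in p53-null complete libraries. WT glutamine-free libraries had 7.37, 7.07 and 7.24 RPKM and WT complete libraries 19.8, 19.7 and 19.9 RPKM. WT cells thus held both the lowest and the highest group, with the p53-null libraries between them. Ccng2 rose 1.42-fold in p53-null cells (log2 change 0.47 ± 0.035, adjusted p = 4.3e-08) and was 2.74-fold lower without glutamine in WT cells (-1.34 ± 0.035, adjusted p = 3.3e-13).

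Bcl6, a transcriptional repressor of germinal centre B cells that FoxO factors are known to raise (chromosome 16, 23965052 to 23988852, minus strand), also changed in opposite directions. It stood at 5.47, 5.43 and 5.75 RPKM in p53-null glutamine-free libraries, against 2.91, 3.10 and 3.29 RPKM in p53-null complete libraries. WT glutamine-free libraries had 5.09, 4.70 and 5.03 RPKM and WT complete libraries 8.04, 7.53 and 7.54 RPKM. The glutamine-free libraries of the lines lay near each other, while the complete libraries lay far apart. The rise in p53-null cells was 1.79-fold (log2 change 0.68 ± 0.041, adjusted p = 5.2e-09), and in WT cells the mean was 1.56-fold lower without glutamine (-0.55 ± 0.041, adjusted p = 2.3e-08). The blood markers Cd79a and Ptprc averaged under 0.1 RPKM in every group.

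Among Foxo1, Irs2, Ccng2 and Bcl6, the p53-null rise of Irs2 did not hold under all alternatives, so the sequence before the transcription start is shown for the other 3, as the stretch in which FoxO sites are usually sought. Each line gives the 250 bases before a RefSeq start (GRCm38.p6), 5′ to 3′ on the gene's strand, at chr3:52268087-52268336 (plus), chr5:93267323-93267572 (plus) and chr16:23988853-23989102 (minus). Capitals mark AAACA or its reverse complement TGTTT, the core shared by forkhead sites.
Foxo1: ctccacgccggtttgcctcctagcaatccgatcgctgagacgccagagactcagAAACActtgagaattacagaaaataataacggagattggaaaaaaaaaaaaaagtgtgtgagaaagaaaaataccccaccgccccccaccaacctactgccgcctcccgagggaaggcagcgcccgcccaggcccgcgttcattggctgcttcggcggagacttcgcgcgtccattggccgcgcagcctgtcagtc
Ccng2: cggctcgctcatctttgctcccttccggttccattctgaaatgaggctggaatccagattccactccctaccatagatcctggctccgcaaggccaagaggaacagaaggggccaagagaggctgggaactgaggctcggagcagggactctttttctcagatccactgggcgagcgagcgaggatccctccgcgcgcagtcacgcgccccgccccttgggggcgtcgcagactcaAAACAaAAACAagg
Bcl6: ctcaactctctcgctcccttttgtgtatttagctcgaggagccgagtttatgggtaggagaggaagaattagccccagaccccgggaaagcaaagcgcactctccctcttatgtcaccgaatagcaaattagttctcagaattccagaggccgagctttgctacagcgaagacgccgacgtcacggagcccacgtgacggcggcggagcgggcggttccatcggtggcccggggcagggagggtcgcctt
The Foxo1 stretch held 1 core, 196 bases before the start. Ccng2 held 2 in tandem, 14 and 8 bases before the start, and Bcl6 held 0 in the bases shown. Bcl6 has another RefSeq start, and the 250 bases before it (chr16:23981284-23981533, minus), not shown, also held 0. Windows of 250 bases before to 50 after the start were found for 7 of the 9 genes, 8 windows in all. The longer forkhead motifs GTAAACA and ATAAACA, searched on both strands, were in 0 of the 8, beside 3.65% and 4.6% of all 32851 windows. The core, which lies inside both longer motifs, was in 6 of the 8 and in 50.5% of all windows. Those 6 were windows of Foxo1, Ccng2, Bcl6, Irs1, Irs2 and Pik3ip1. Neither the Bcl6 nor the Pik3ip1 match lay within the 250 bases before the start. A match is a description of the sequence, and no match says only that these letters are not in the window.

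The difference of the 2 medium responses, p53-null minus WT, tested directly whether the lines responded unequally. It was called for 84.9% of tested genes, 46.4% with a positive difference and 38.4% with a negative one. Among the 9 genes it was positive and called for 8, Foxo3 being the exception. It reached 1 on the log2 scale for 3 of the 9, against 15.6% of tested genes. It was 1.81 ± 0.049 for Ccng2 (adjusted p = 1.9e-12), 1.37 ± 0.031 for Foxo1 (adjusted p = 3.9e-13) and 1.23 ± 0.058 for Bcl6 (adjusted p = 3.6e-10). Smaller differences were found for Foxo4 (0.77 ± 0.049, adjusted p = 8.1e-09), Pik3ip1 (0.62 ± 0.060, adjusted p = 5.7e-07) and Irs2 (0.38 ± 0.047, adjusted p = 7e-06). With quantile normalization the Irs2 difference was 0.19 and that of Irs1 0.46, and both kept the call. With a pseudocount of 0.1 RPKM the Irs1 difference was 1.43, so whether Irs1 reaches 1 depends on the pseudocount. The median over the 9 genes was 0.73, beside 0.06 over all tested genes. Both medium comparisons enter this difference, so it is not separate support for either.

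**Figure D3:**
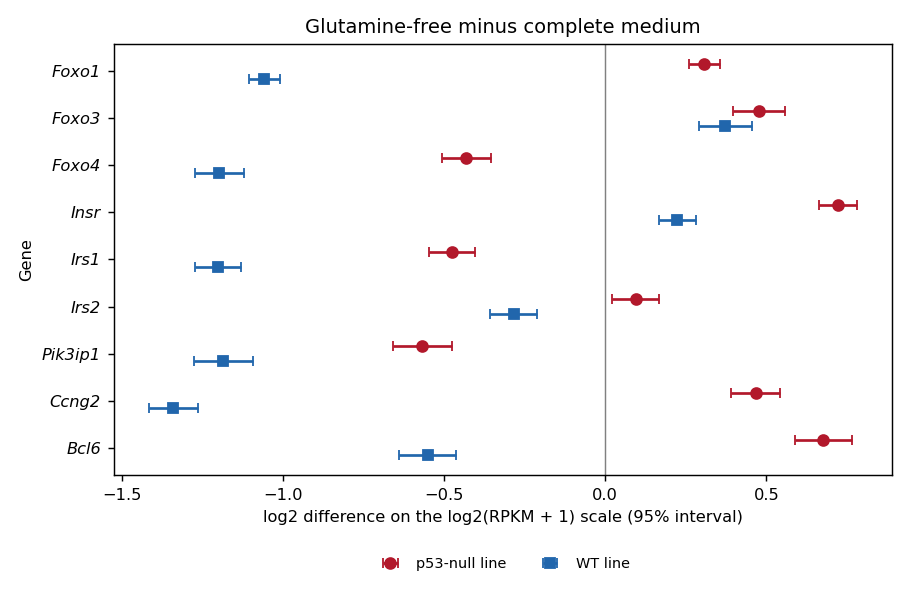
Log2 change on the log2(RPKM + 1) scale, glutamine-free minus complete, of each of the 9 genes in p53-null and in WT cells, with 95% intervals from limma. Foxo1, Irs2, Ccng2 and Bcl6 lie above 0 in p53-null cells and below 0 in WT cells, and Foxo3 has the closest pair at 0.48 and 0.37.

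Between the lines, in complete medium, p53-null cells had less of 7 genes (Insr, Pik3ip1, Foxo1, Foxo3, Foxo4, Ccng2, Bcl6) and more of Irs1 and Irs2. In glutamine-free medium they had less of 4 (Insr, Pik3ip1, Foxo1, Foxo3) and more of 5. Of all tested genes, 90.9% were called between lines in complete medium and 91.4% in glutamine-free medium. In complete medium 48.4% were higher and 42.5% lower in p53-null cells, and in glutamine-free medium 51.4% were higher and 40% lower. A called difference of at least 1 on the log2 scale was found for 6 of the 9 genes and 20% of tested genes in complete medium, and for 2 of the 9 and 18.6% in glutamine-free medium. The libraries of the lines did not overlap for any of the 9 genes, which held for 91.2% of tested genes in complete and 91.4% in glutamine-free medium. Genes called lower in p53-null cells in both media made up 27.8% of those tested, against 4 of the 9 here, and genes called higher in both made up 35.8%, against 2 of the 9. Foxo4, Ccng2 and Bcl6 changed sides with the medium, as did 20.2% of tested genes.

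The widest line differences were in Irs1, Foxo1 and Foxo3. Mean Irs1 was 8.60-fold higher in p53-null cells without glutamine (log2 difference 1.97 ± 0.033, adjusted p = 6e-15) and 2.87-fold higher in complete medium (1.24 ± 0.033, adjusted p = 4.6e-13). Foxo3 was 3.26-fold lower in p53-null cells without glutamine (-1.51 ± 0.037, adjusted p = 2.5e-13) and 3.76-fold lower in complete medium (-1.62 ± 0.037, adjusted p = 1.2e-13). Foxo1 was 1.52-fold lower without glutamine (-0.53 ± 0.022, adjusted p = 5.2e-11) and 4.35-fold lower in complete medium (-1.90 ± 0.022, adjusted p = 1.6e-16). Its line gap was thus narrower without glutamine, by the response difference given above.

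Ccng2 was 1.84-fold higher in p53-null cells without glutamine (0.80 ± 0.035, adjusted p = 8.4e-11) and 2.12-fold lower in complete medium (-1.01 ± 0.035, adjusted p = 6.8e-12). Bcl6 was 2.48-fold lower in p53-null cells in complete medium (-1.09 ± 0.041, adjusted p = 1.7e-11). Its 1.12-fold excess without glutamine (0.14 ± 0.041, adjusted p = 0.0054) did not hold under 2 other scalings, at 0.01 with median centring and -0.07 with quantile normalization. Foxo4 was 1.26-fold higher without glutamine (0.28 ± 0.035, adjusted p = 4.7e-06), a call lost with quantile normalization (0.07, adjusted p = 0.056), and 1.44-fold lower in complete medium (-0.49 ± 0.035, adjusted p = 1.6e-08). Pik3ip1 was 1.86-fold lower without glutamine (-0.67 ± 0.043, adjusted p = 4.6e-09) and 2.83-fold lower in complete medium (-1.28 ± 0.043, adjusted p = 4.3e-12). The Insr difference without glutamine was small (-0.16 ± 0.027, adjusted p = 7.9e-05) and was lost when libraries were rescaled to 1 sum (-0.02, adjusted p = 0.47). In complete medium Insr was 1.66-fold lower in p53-null cells (-0.66 ± 0.027, adjusted p = 3.7e-11).

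**Figure D4:**
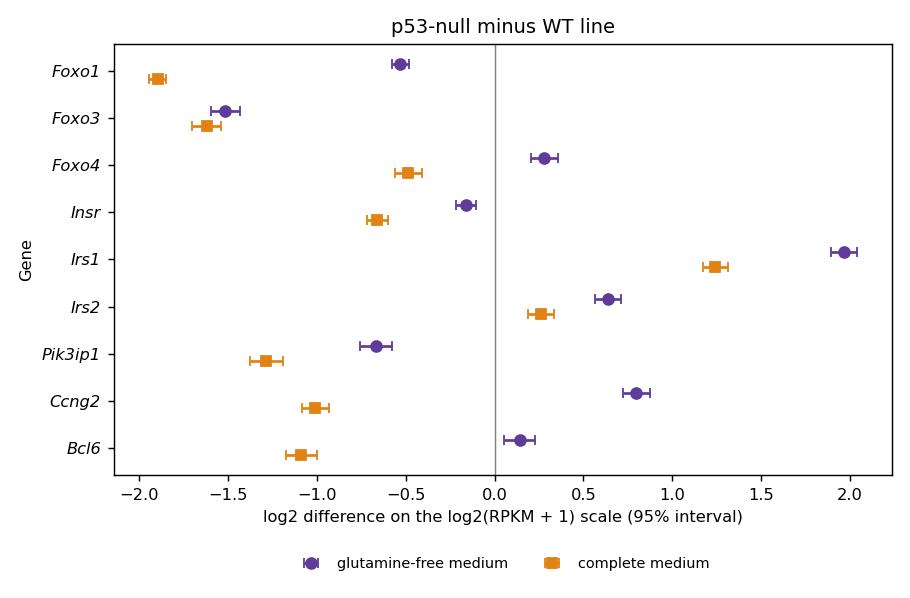
Log2 difference on the log2(RPKM + 1) scale, p53-null minus WT, of each of the 9 genes in glutamine-free and in complete medium, with 95% intervals from limma. Foxo1, Foxo3, Insr and Pik3ip1 lie below 0 in both media, Irs1 and Irs2 above 0 in both, and Foxo4, Ccng2 and Bcl6 above 0 without glutamine and below 0 in complete medium.

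RPKM is scaled to transcript length, so the 9 genes can also be ordered within a group. The annotation that set those lengths is not given, and overlap of libraries does not measure an error in length. Ccng2 was the highest of them in p53-null glutamine-free (13.3 RPKM), p53-null complete (9.35 RPKM) and WT complete cells (19.8 RPKM). It did not stand clear of Insr in the p53-null glutamine-free libraries or of Foxo4 in the p53-null complete ones. Foxo3 was highest in WT glutamine-free cells (14.96 ± 0.42 RPKM), just above Insr (14.2 ± 0.35 RPKM) and without overlap, and it was lowest in p53-null complete cells (3.01 ± 0.062 RPKM), where it overlapped with Bcl6. Irs1 was the lowest of the 9 in both WT groups, and Pik3ip1 was the lowest in p53-null glutamine-free cells (2.14 ± 0.055 RPKM). Foxo1, Bcl6 and Irs1 overlapped with their neighbours in p53-null glutamine-free cells at 5.34 to 5.61 RPKM, as did Foxo4, Irs2 and Bcl6 in WT glutamine-free cells at 4.94 to 5.10 RPKM.

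The tested genes with the most similar pattern over the 4 group means were found from the largest gap between centred log2 means. For Ccng2 these were Cd14 (gap 0.09), Sdc4 (0.13) and Zc3h7a (0.15), and for Bcl6 Vgll4 (0.10), D17H6S56E-5 (0.11) and Glipr2 (0.11). Foxo1 lay nearest to Myo10 (0.08), Ptch1 (0.08) and Nudt16 (0.10), and Foxo3 to Cacna1c (0.09), Lrig3 (0.13) and Klf9 (0.15). Pik3ip1 lay nearest to Sqle (0.02), Sec61b (0.09) and Tbc1d8b (0.09), and Irs1 to Mgat3 (0.11), Capn2 (0.12) and Npr1 (0.13). Foxo4 lay nearest to Katnal2 (0.02), Pcdhgc5 (0.04) and Hpse (0.05), all of low level, where the added 1 RPKM flattens changes. This flattening also applies to Cacna1c, Lrig3, Nudt16, Mgat3 and Npr1, which averaged under 1 RPKM in 1 or more groups. In complete medium Cacna1c averaged 0.377 RPKM in p53-null and 3.15 RPKM in WT cells, against 3.01 and 11.3 RPKM for Foxo3. Insr lay nearest to Traf2 (0.06), Ap3m2 (0.08) and Stk24 (0.08), and Irs2 to Wnk1 (0.01), Bcap31 (0.02) and Ubtd2 (0.03). Patterns like that of Irs2 were common, with 64 genes within 0.1 of it, and no gene came that close to Irs1. With 4 means per gene, likeness is a description only.

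The wider pathway was followed through 47 listed insulin, PI3K and AKT genes, 41 of which were tested. Without glutamine 25 rose and 11 fell in p53-null cells, and 16 rose and 22 fell in WT cells, with median log2 changes of 0.14 and -0.09. These are 61% and 26.8% of the tested list in p53-null cells, beside 50% and 32% of all tested genes, and 39% and 53.7% in WT cells, beside 46% and 44%. The p53-null count of rises was 16 with median centring. In WT cells Grb14, an adaptor that inhibits the insulin receptor, had the largest fall. It averaged 4.44 ± 0.17 and 10.6 ± 0.21 RPKM in p53-null glutamine-free and complete cells, and 0.749 ± 0.075 and 20.7 ± 0.76 RPKM in WT glutamine-free and complete cells. The WT log2 change was -3.63 ± 0.038 (adjusted p = 5.7e-17) and the p53-null one -1.09 ± 0.038 (adjusted p = 2.4e-11). Sgk1, an AKT-related kinase that also phosphorylates FoxO3, was 4.54 ± 0.11 RPKM in WT glutamine-free cells and 27.1 ± 0.29 RPKM in WT complete cells (-2.34 ± 0.022, adjusted p = 2.6e-17), while in the p53-null line it averaged 13.1 and 12.5 RPKM. Socs3, an inhibitor of cytokine and insulin receptor signalling, fell in both lines (-0.12 ± 0.036 in p53-null and -1.63 ± 0.036 in WT cells). Enpp1, an ectoenzyme that binds the receptor, also fell in both (-0.43 ± 0.033 in p53-null and -1.50 ± 0.033 in WT cells). Mean Enpp1 was 0.209 and 0.626 RPKM in p53-null glutamine-free and complete cells, and 0.256 and 2.56 RPKM in WT ones. At this low level the log2 scale understates the falls in RPKM, 2.995-fold in p53-null and 9.98-fold in WT cells. Pik3cb, a catalytic PI3K subunit, rose in p53-null cells (0.80 ± 0.029) and was not called in WT cells (0.005 ± 0.029). Sh2b2, an adaptor of the receptor, rose in both lines (0.74 ± 0.046 in p53-null and 1.04 ± 0.046 in WT cells). Igf2, a ligand, fell in both lines (-0.76 ± 0.035 in p53-null and -0.16 ± 0.035 in WT cells). Its mean was 15.5 and 26.8 RPKM in p53-null glutamine-free and complete cells, and 0.0351 and 0.155 RPKM in WT ones. At the low WT level the log2 scale understates the fall, which in RPKM was relatively larger in WT than in p53-null cells. Pik3cd, another catalytic subunit, averaged 0.690 ± 0.025 RPKM in WT glutamine-free cells and 3.10 ± 0.11 RPKM in WT complete cells, with a response difference of 1.21 ± 0.054 (adjusted p = 2.1e-10). The response difference was positive for 27 of the 41 (65.9%) and negative for 12 (29.3%), beside 46.4% and 38.4% of all tested genes. Between lines in glutamine-free medium, 22 were higher (53.7%) and 15 lower (36.6%) in p53-null cells, beside 51.4% and 40% of all tested genes. The count of lower genes there was 9 with libraries rescaled to 1 sum. In complete medium 18 were higher (43.9%) and 20 lower (48.8%), beside 48.4% and 42.5% of all tested genes.

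Igf1r, the receptor closest to Insr, rose without glutamine in p53-null cells (10.9 ± 0.042 against 7.71 ± 0.013 RPKM) and fell in WT cells (6.06 ± 0.11 against 8.54 ± 0.11 RPKM), with a response difference of 0.88 ± 0.030 (adjusted p = 1.3e-11). Akt1 fell slightly in p53-null cells (65.0 ± 1.4 against 70.5 ± 1.5 RPKM) and was not called in WT cells (50.7 ± 1.2 against 50.1 ± 0.91 RPKM). Wide line differences, like that of Igf2, were also found in 2 genes named after their values were seen. Grb10, another adaptor that inhibits the receptor, averaged 27.7 and 24.7 RPKM in p53-null glutamine-free and complete cells, and 0.0205 and 0.0748 RPKM in WT ones. Pik3r1, the main regulatory PI3K subunit, averaged 2.62 and 3.61 RPKM in p53-null glutamine-free and complete cells, and 26.7 and 32.3 RPKM in WT ones.

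Of 32 listed FoxO targets, 25 were tested. Without glutamine 14 rose and 9 fell in p53-null cells, and 10 rose and 15 fell in WT cells, with medians of 0.12 and -0.21. These are 56% and 36% in p53-null cells, beside 50% and 32% of all tested genes, and 40% and 60% in WT cells, beside 46% and 44%. The response difference was positive for 14 (56%) and negative for 8 (32%), beside 46.4% and 38.4% of all tested genes. In glutamine-free medium 12 were higher (48%) and 12 lower (48%) in p53-null than in WT cells, beside 51.4% and 40% of all tested genes. In complete medium 7 were higher (28%) and 16 lower (64%), beside 48.4% and 42.5%. Txnip, an inhibitor of thioredoxin and of glucose uptake, averaged 77.8 ± 0.77 and 16.9 ± 0.56 RPKM in p53-null glutamine-free and complete cells, and 18.0 ± 0.75 and 36.5 ± 0.24 RPKM in WT ones. Its response difference was 3.12 ± 0.039 (adjusted p = 2.7e-15), with a rise in p53-null and a fall in WT cells, the split seen for Foxo1, Ccng2 and Bcl6. Gadd45a, a growth arrest gene, went up in both lines, to 78.7 ± 1.3 RPKM in p53-null glutamine-free cells, against 18.4 ± 0.93 in complete ones, and to 252 ± 1.6 RPKM in WT glutamine-free cells, against 17.8 ± 1.3 in complete ones. Selenop, a selenium carrier, fell in both lines (-1.89 ± 0.060 in p53-null and -1.96 ± 0.060 in WT cells). Its mean was 2.29 and 11.2 RPKM in p53-null glutamine-free and complete cells, and 0.765 and 5.86 RPKM in WT ones. In RPKM the falls were 4.87-fold in p53-null and 7.66-fold in WT cells, so the near-equal log2 changes understate the WT fall more. Klf2, a quiescence factor of T cells, also fell in both (-1.45 ± 0.077 in p53-null and -0.71 ± 0.077 in WT cells). Mean Klf2 was 1.15 and 4.86 RPKM in p53-null glutamine-free and complete cells, and 0.3575 and 1.21 RPKM in WT ones. In RPKM these falls were 4.24-fold in p53-null and 3.39-fold in WT cells, so the log2 scale understates the WT one most. Sesn1, a stress-induced sestrin, fell by less in p53-null cells (-0.48 ± 0.035) than in WT cells (-2.28 ± 0.035), and the difference of these responses was called (adjusted p = 1.9e-12). Cdkn1a, the cell cycle inhibitor p21, rose by 0.53 ± 0.083 in p53-null and 2.24 ± 0.083 in WT cells, with a response difference of -1.71 ± 0.117 (adjusted p = 1.6e-08). The list also holds known p53 targets, Sesn1 and Cdkn1a among them. Cdkn1b, the FoxO-linked inhibitor p27, fell in both lines, at 14.1 ± 0.51 against 22.5 ± 1.0 RPKM in p53-null cells and 15.3 ± 0.73 against 30.2 ± 1.1 RPKM in WT cells.

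A further list of 20 held Foxo6, itself a FoxO factor and not tested, and 19 regulators of FoxO proteins, which were tested. Without glutamine 15 rose and 3 fell in p53-null cells, and 14 rose and 3 fell in WT cells, with medians of 0.26 and 0.35. These are 78.9% and 15.8% in p53-null cells, beside 50% and 32% of all tested genes, and 73.7% and 15.8% in WT cells, beside 46% and 44%. Under median centring 5 fell in p53-null cells. The response difference was positive for 7 (4 with median centring) and negative for 10. With the values as deposited these are 36.8% and 52.6% of the 19, beside 46.4% and 38.4% of all tested genes. In glutamine-free medium 9 were higher and 9 lower in p53-null than in WT cells (5 lower with libraries rescaled to 1 sum). With the values as deposited each count is 47.4% of the 19, beside 51.4% and 40% of all tested genes. In complete medium 11 were higher (57.9%) and 2 lower (5 lower with median centring), beside 48.4% and 42.5% of all tested genes. Sirt1, a deacetylase of FoxO proteins, averaged 7.09 ± 0.15 and 5.93 ± 0.20 RPKM in p53-null glutamine-free and complete cells, and 8.32 ± 0.46 and 2.83 ± 0.12 RPKM in WT ones. Its WT log2 change was 1.28 ± 0.038 (adjusted p = 1.3e-12). Ywhag, a 14-3-3 protein of the family that holds phosphorylated FoxO in the cytoplasm, rose by 0.26 ± 0.014 in p53-null cells (adjusted p = 2.2e-09) and by 1.28 ± 0.014 in WT cells (adjusted p = 1.2e-16). The kinases Mapk8 (0.57 ± 0.026 in p53-null and 0.89 ± 0.026 in WT cells) and Stk4 (0.46 ± 0.018 and 0.75 ± 0.018), both known to phosphorylate FoxO factors, rose in both lines. Dyrk1a, a kinase of Foxo1, also rose in both (0.47 ± 0.020 in p53-null and 0.70 ± 0.020 in WT cells). Sirt3, a mitochondrial deacetylase, rose in p53-null cells (0.50 ± 0.079) and was not called in WT cells (-0.05 ± 0.079). Its response difference was 0.56 ± 0.112 (adjusted p = 0.00045), a call lost with quantile normalization (0.27, adjusted p = 0.05). Ywhaz, another 14-3-3 protein, had a negative response difference (-0.53 ± 0.023, adjusted p = 1.8e-10), as did Sirt1 (-1.06 ± 0.054) and Ywhag (-1.01 ± 0.020).

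**Figure D5:**
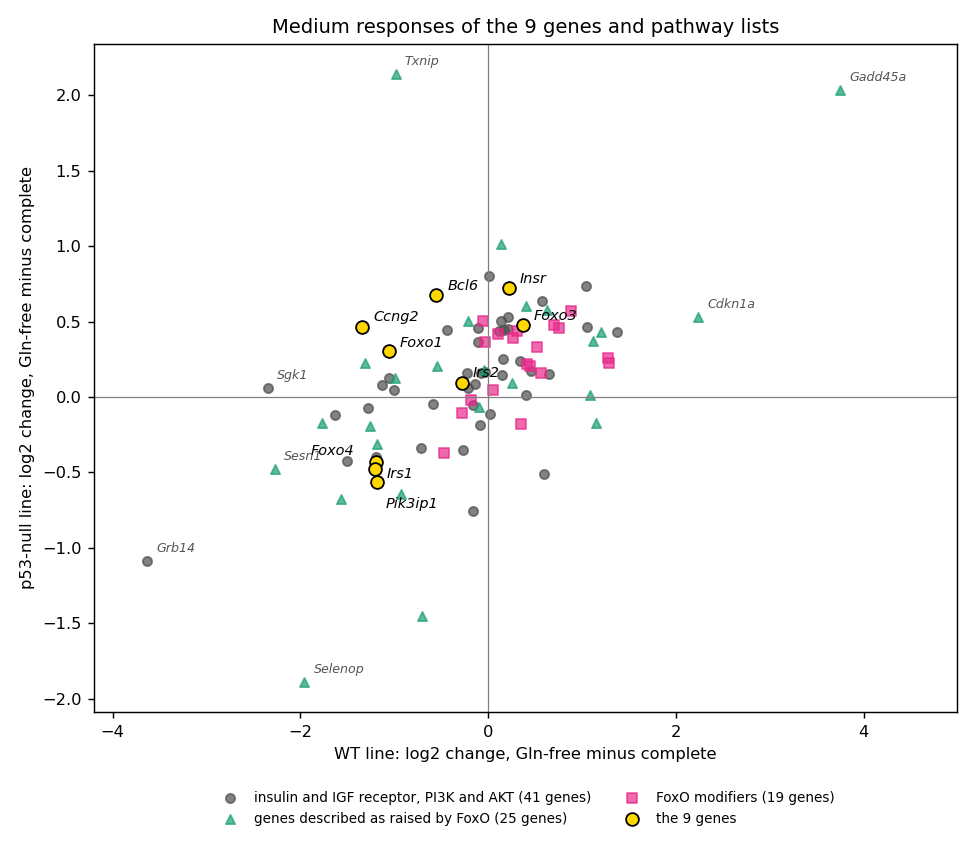
Log2 change without glutamine on the log2(RPKM + 1) scale in p53-null cells against that in WT cells for the 9 genes and the tested genes of the 3 lists, 1 point per gene. Foxo1, Irs2, Ccng2 and Bcl6 lie at the upper left, higher in p53-null and lower in WT cells, as does Txnip, at 2.14 in p53-null cells.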

How the data were processed

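The deposited table gives RPKM for 12 polyadenylated RNA libraries, made with an unstranded kit per the labels' protocols. The authors used CASAVA 1.8, HISAT2 2.0.4 and Partek with mm10, per the submitters' processing notes, while for annotation and counting rules the labels say nothing. RPKM as deposited keeps no read count, and very abundant genes lower the values of all others. Steps between values under 0.5 RPKM placed the depth at 37.5 to 46.8 M reads. Of those values 48.9 to 56.7% were whole reads within 0.05, so counts were not recovered, and precision is given as the SD over 3 libraries.

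The 11461 genes that reached 1 RPKM in 3 or more of the 12 libraries were fitted as log2(RPKM + 1) on the 4 group means with limma 3.58.1 (R 4.3.3) and a mean-variance trend, giving 5 comparisons, each adjusted by Benjamini and Hochberg. A check of the fit on simulated data covered only the medium comparison in p53-null cells. Its noise was normal and independent between libraries, so it could not test the scaling or the replication of the real libraries. The 9 genes, the lists and their tests were chosen with earlier results of these data known. Named genes are the 9, the 4 called members with the largest change of each list in each medium comparison and in the difference of the responses, Igf1r, Akt1 and Cdkn1b, and the 3 genes most like each of the 9; 1 further gene of that rule is not reported here. Grb10, Pik3r1, Foxo6, the cell type markers and the AAACA motif were chosen after their values were seen. Coordinates are GENCODE M21 (mm10), and promoters are from RefSeq GRCm38.p6. Alternatives were another pseudocount, no filter, 3 other scalings, a replicate block, fits of only 2 groups and leaving out each library. A threshold of 1 on the log2(RPKM + 1) scale was also applied. Replicate numbers were not found to pair the libraries.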

Additional observations from a re-analysis of the deposited data

Results flagged for a closer look

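For 8 of the 9 genes the response to glutamine-free medium differed between the lines in a direct test of that difference (limma, p-values adjusted over all tested genes). The difference, p53-null minus WT on the log2(RPKM + 1) scale, was 1.81 for Ccng2, 1.37 for Foxo1 and 1.23 for Bcl6. These 3 genes rose in p53-null cells and fell in WT cells in every alternative fit. The difference was 0.38 for Irs2, whose p53-null rise was small. It was 0.77 for Foxo4, 0.73 for Irs1 and 0.62 for Pik3ip1, which fell more in WT cells than in p53-null cells. It was 0.50 for Insr, which rose more in p53-null cells. Such a difference was called for 84.9% of all tested genes.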

How the results depend on the processing

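Of 846 log2 changes of the 9 genes recomputed under 19 alternatives, 834 kept direction and call, 5 lost the call, 4 gained it and 3 reversed. Reversals were Irs2 in p53-null cells without glutamine (-0.011 with median centring, -0.001 with quantile normalization) and Bcl6 between lines in glutamine-free medium (-0.069 with quantile normalization). Of the named list genes, Akt1 in WT cells reversed, at -0.002 with libraries rescaled to 1 sum and -0.109 with quantile normalization. The cause was not tested. Foxo3 gained a response difference with rescaling (0.147), a pseudocount of 0.1 (0.193) and quantile normalization (0.17). With that pseudocount Irs1 moved to -1.97 for the WT response, 2.92 between lines without glutamine and 1.43 for the response difference. Some other called values moved by over 1.5 times without losing the call. With quantile normalization the response difference was 0.192 for Irs2 and 0.461 for Irs1, and the line difference of Irs2 without glutamine was 0.425. With median centring the p53-null change of Foxo1 was 0.202, and the line differences without glutamine were 0.145 for Foxo4 and -0.296 for Insr. The line difference of Bcl6 there was 0.267 with libraries rescaled to 1 sum.

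Asking also for a change of at least 1 on the log2(RPKM + 1) scale left 0 of the 9 higher and 0 lower in p53-null cells. In WT cells it left 0 higher and 5 lower. Between lines it left 1 higher and 1 lower without glutamine, and 1 higher and 5 lower in complete medium. For the response difference it left 3 positive and 0 negative. Quantile normalization left 3 of the 9 higher in p53-null than in WT cells in glutamine-free medium. Of all tested genes, the log2 threshold left 146 higher and 233 lower in p53-null cells, and 1117 and 1477 in WT cells. It left 1227 and 903 between lines without glutamine and 1047 and 1247 in complete medium. For the response difference it left 1144 and 639. Leaving out 1 library gave 5 to 6 of the 9 higher in p53-null cells and 8 to 9 with a positive response difference, and the other counts stayed as they were. Same-numbered libraries did not deviate together (correlations -0.106 to 0.088 over 18 pairs), and the replicate block left all counts for the 9 genes as they were, with 6 higher and 3 lower in p53-null cells and 2 higher and 7 lower in WT cells. The edgeR alternative was not run, because whole reads were not recovered.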
